A study of Mus musculus with 24 samples.

Results

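Mouse retinal endothelial cells that lack frizzled-4 (Fz4-/-) were compared with wild type cells, both grown on gelatin with no source of Norrin added. The comparison rests on the 6 of 24 arrays whose titles name gelatin-coated plates, 3 Fz4-/- and 3 wild type, and on all 18193 genes, each read by the probe set whose mean was highest in the series. The other 18 arrays held the same 2 genotypes on Matrigel, a basement membrane extract, or in co-culture with human HEK293 cells that did or did not make Norrin. Only the 6 Matrigel arrays entered the fit here, where they share the estimate of the spread. Those cells had 24 h in 1% serum and then 6 h on Matrigel.

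All cells came from adult mice of C57Bl6/129 mixed background, labelled as mixed gender. Both genotypes carried a conditional oncogene, a temperature-sensitive SV40 large T antigen under the H2Kb promoter, which answers to gamma interferon. Retinal endothelial cells were purified with antibodies and passaged at 33 °C on 1% gelatin, and for RNA they were held at 37 °C without interferon gamma. The labels do not say whether the replicates of a genotype were separate cultures, isolates or lines, so the tests know no other spread than that between these arrays, which may be technical. Genotype, cell isolate and the mixture of the background strains cannot be told apart in this design. Since each array read a bulk culture, fewer cells of a kind and less RNA per cell cannot be told apart either.

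Frizzled-4 is a surface receptor of endothelial cells. With the co-receptors Lrp5 or Lrp6 and the tetraspanin Tspan12 it binds Norrin, a ligand outside the Wnt family that is made by Muller glia, and stabilizes beta-catenin in the cell. In the retina this signal is needed for the deep vessel layers to form and for the blood-retina barrier, and loss of the ligand or the receptor causes hypovascular retinal disease. On gelatin neither genotype received Norrin from a neighbouring line, so the comparison is of the cells without added ligand.

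Replicates 2 and 3 lay close together in both genotypes and replicate 1 stood apart. The standard deviation of gene differences between replicates 2 and 3 was 0.147 in Fz4-/- and 0.180 in wild type (log2), against 0.342 to 0.347 and 0.327 to 0.333 for the pairs with replicate 1. The median of all probe sets lay between 5.02 and 5.06 on the 6 arrays. Values are log2, differences are Fz4-/- minus wild type, an error after ± is the standard error of limma unless named otherwise, with 3 arrays per group, and 1 unit is 2-fold. A gene rose or fell if its adjusted p in limma (Benjamini-Hochberg, across the 18193 genes) was below 0.05. It held if it also passed in each of the 12 fits that left out 1 array.

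The targeted gene was read first, as a check of the labels. Fzd4, which encodes frizzled-4, read 5.50, 5.08 and 4.61 in Fz4-/- and 9.09, 8.58 and 8.44 in wild type. The groups did not overlap, and Fzd4 fell by 3.64 ± 0.22 (adjusted p = 7.77e-07), or 12.5-fold. The other Fzd4 probe sets differed by -2.62 and -1.18. Ndp, which encodes mouse Norrin, read 3.35, 3.20 and 3.14 in Fz4-/- and 2.63, 3.02 and 3.11 in wild type, below the 25th percentile of the probe sets on every array (3.38 to 3.43), and did not pass the test (0.31 ± 0.12, adjusted p = 0.109).

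Defining endothelial markers were read at high levels in both genotypes. Cdh5 (VE-cadherin) read 10.87 to 10.98, the VEGF receptor Kdr 10.15 to 10.83 and the angiopoietin co-receptor Tie1 10.01 to 10.26 over the 6 arrays, and none of them passed the test. The mean level of 32 measured pan-endothelial genes was 10.45 in Fz4-/- and 10.35 in wild type. Among markers of other retinal cells, the leukocyte gene Ptprc read 2.56 to 3.10, the Muller glia gene Rlbp1 2.54 to 2.71, the pericyte genes Rgs5 2.86 to 3.16 and Pdgfrb 4.52 to 4.76, and the fibroblast collagen Col1a1 3.31 to 3.59. Other members of these lists were read above the median on all 6 arrays, except in the fibroblast list, where 0 were. Below the median probe set on all 6 arrays were 9 of 15 pericyte and smooth muscle markers, 8 of 15 fibroblast, 9 of 14 Muller glia and astrocyte, 14 of 18 microglia and macrophage, 13 of 17 retinal neuron and 9 of 14 pigment epithelium markers. Members read high included Vim, a filament protein that endothelial cells also make, at 13.54 to 13.71, and the macrophage and lysosome gene Cd68 at 7.69 to 10.03. The neuron marker Rbpms read 9.51 to 9.85, the contractile kinase Mylk 8.13 to 9.31, the proteoglycan Dcn 4.39 to 7.77 and the pigment cell factor Mitf 6.21 to 6.47. On single arrays other markers of the last 2 lists read higher. Among fibroblast markers Thy1 reached 8.61 in Fz4-/- and Twist1 7.68 in wild type, and a pigment epithelium marker reached 6.93 in Fz4-/-. Vwf, an endothelial marker of large vessels, also read low, at 2.91 to 3.58. The labels state mixed gender, but Xist, the RNA of the inactive X chromosome, read 11.15 to 11.51 and the Y-linked gene Kdm5d 2.97 to 3.14 on all 6 arrays.

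The genotypes differed in genes across the whole array. Of 18193 genes, 2719 passed the threshold (14.9%), 1312 higher (7.21%) and 1407 lower (7.73%) in Fz4-/- cells. Most differences were small: the median size among these genes was 0.62, or 1.54-fold. Falls reached further than rises, with 496 genes lower and 227 higher by at least 2-fold, 126 and 74 by at least 4-fold, and 35 and 27 by at least 8-fold. The median over all genes was -0.004. The 3 arrays of 1 genotype lay wholly above or below the other for 5934 genes (32.6%), among them 2709 of the 2719.

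The number of calls rested on the spread between replicates. It was 1800 without wild type gelatin replicate 2 and 1796 without wild type gelatin replicate 3, and 1467 genes held (8.06%), 673 higher (3.7%) and 794 lower (4.36%). With replicate number as a block the count was 4138, which held all 2719. Without replicate 1 of every group it was 4911, which held 2608 of the 2719, and 667 once replicates 2 and 3 counted as 1 averaged sample. Of 3014 further probe sets for 1608 of the called genes, 2626 (87.1%) had the same sign as the probe set used, 1109 passed with the same sign and 11 with the opposite sign.

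**Figure D1:**
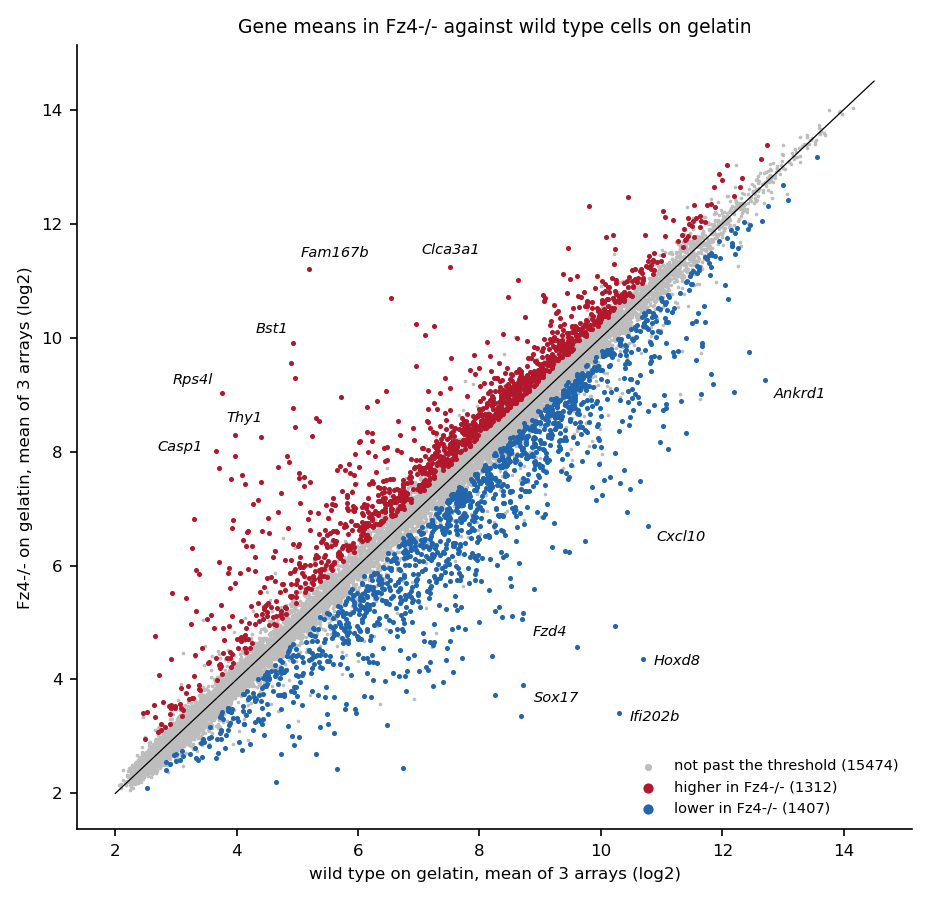
Mean log2 level of each of 18193 genes on the 3 wild type arrays (horizontal axis) against the 3 Fz4-/- arrays (vertical axis), with the line of equal levels. Red points are the 1312 genes higher and blue points the 1407 genes lower in Fz4-/- cells by limma, and the blue points reach further from the line.

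The largest differences were taken from genes that held and whose arrays did not overlap between genotypes. Among the 15 largest falls were an interferon-inducible gene, a Hox gene and Sox17. Ifi202b, a DNA-binding protein of the interferon-inducible Ifi200 family, read 3.22, 3.76 and 3.24 in Fz4-/- and 9.71, 10.64 and 10.57 in wild type. It fell by 6.90 ± 0.29 (adjusted p = 4.04e-08), the largest difference of all. Its probe set carries a suffix for possible binding to related transcripts, so the value may include other Ifi200 genes. Hoxd8, a homeobox transcription factor, read 4.52, 4.34 and 4.22 in Fz4-/- and 10.68, 10.96 and 10.44 in wild type and fell by 6.33 ± 0.17. Sox17, a transcription factor of arterial endothelium, read 3.69, 3.85 and 4.17 in Fz4-/- and 8.48, 8.77 and 8.91 in wild type and fell by 4.82 ± 0.18. In all 3 genes the Fz4-/- arrays lay far below the wild type arrays.

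Cbln1, a secreted synapse organizer of the C1q family, read 5.60, 4.62 and 4.61 in Fz4-/- and 11.23, 9.69 and 9.77 in wild type. Stox2, a winged-helix factor, read 4.94, 4.68 and 4.12 in Fz4-/- and 9.55, 9.62 and 9.65 in wild type, and Vgll3, a cofactor of TEAD transcription factors, read 3.45, 3.82 and 3.89 in Fz4-/- and 7.82, 8.64 and 8.30 in wild type. Replicate 1 was the highest array for Cbln1 in both genotypes. The differences were -5.29 ± 0.45 for Cbln1, -5.03 ± 0.24 for Stox2 and -4.53 ± 0.21 for Vgll3, and a further Stox2 probe set gave -0.31, not past the threshold. Sparcl1, a matricellular protein related to Sparc, read 4.29, 4.60 and 4.35 in Fz4-/- and 8.07, 8.32 and 8.23 in wild type and fell by 3.79 ± 0.10. Ankrd1, a nuclear protein induced by stretch, read 8.98, 9.44 and 9.37 in Fz4-/- and 12.63, 12.70 and 12.79 in wild type and fell by 3.44 ± 0.26.

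The antisense transcript Hoxd3os1 fell by 5.33 ± 0.21, the zinc finger gene Zfp979 fell by 4.29 ± 0.21, the epidermal gene Crct1 fell by 3.55 ± 0.32, Rpgrip1, a scaffold of the photoreceptor cilium, fell by 3.48 ± 0.13, and Ang, the ribonuclease angiogenin, fell by 3.45 ± 0.14. Hoxd3os1 and Hoxd3 lie on opposite strands, and how far their probe sets read each other was not tested. For Rpgrip1 and Ang the probe sets of the same gene disagreed. The other Rpgrip1 sets gave 0.14, -0.07 and -1.52, with the first and second not past the threshold, and the other Ang sets gave -1.99 and -0.17, with the last not past. Cxcl10, a chemokine induced by interferon, read 5.68, 7.25 and 7.12 in Fz4-/- and 8.68, 11.86 and 11.80 in wild type. It fell by 4.09 ± 0.89, and leaving out 1 array gave -5.14 (without wild type gelatin replicate 1) to -3.56.

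The largest rise was that of Fam167b. This gene of little known function read 11.37, 11.15 and 11.07 in Fz4-/- and 5.39, 4.83 and 5.36 in wild type and rose by 6.00 ± 0.19 (adjusted p = 3.88e-09), or 64.2-fold. Casp1, the caspase that matures interleukin-1 beta, read 7.49, 8.34 and 8.23 in Fz4-/- and 3.95, 3.42 and 3.61 in wild type. Thy1, a surface glycoprotein of fibroblasts, T cells and some endothelium, read 7.91, 8.36 and 8.61 in Fz4-/- and 4.13, 4.04 and 3.74 in wild type. Both lay far lower on each wild type array than on any Fz4-/- array, and rose by 4.36 ± 0.21 and 4.32 ± 0.22.

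Bst1, an ectoenzyme that makes cyclic ADP-ribose, read 9.63, 10.07 and 10.02 in Fz4-/- and 3.30, 5.67 and 5.81 in wild type and rose by 4.98 ± 0.59. Wild type replicate 1 stood low, and without it the rise was 4.16. Slfn4, of the interferon-inducible Schlafen family, read 10.79, 10.66 and 10.62 in Fz4-/- and 5.33, 7.20 and 7.11 in wild type and rose by 4.15 ± 0.52, or 3.54 without wild type gelatin replicate 1. Tbx18, a T-box transcription factor known from pericytes and epicardium, read 7.67, 7.74 and 7.71 in Fz4-/- and 3.65, 3.55 and 3.90 in wild type and rose by 4.01 ± 0.11. Its replicates lay close together inside each genotype.

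Rises were also seen in receptors, enzymes and channels. The ribosomal protein gene Rps4l rose by 5.27 ± 0.26, the phosphodiesterase Gdpd3 by 4.66 ± 0.20, the serine protease Klk8 by 4.32 ± 0.33, and the chloride channel regulator Clca3a1 by 3.72 ± 0.09. The somatostatin receptor Sstr4 rose by 3.95 ± 0.19 (0.86 in its other probe set), the adhesion receptor Adgrg3 by 3.85 ± 0.18, and Npr3, which clears natriuretic peptides, by 3.84 ± 0.27. Samd5 rose by 3.61 ± 0.17 and Ppp1r14a, an inhibitor of myosin phosphatase, by 3.52 ± 0.51.

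**Figure D2:**
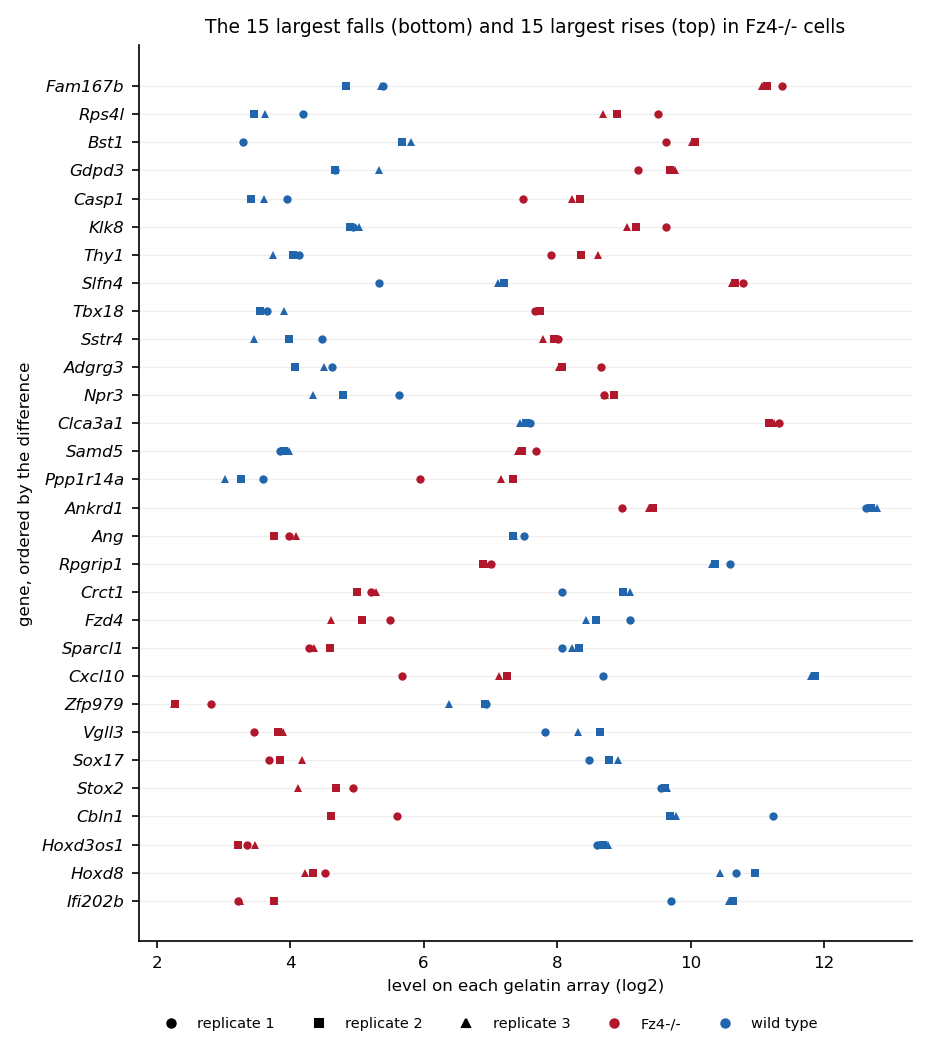
Log2 level on each of the 6 gelatin arrays (horizontal axis) for the 15 largest falls and the 15 largest rises, ordered by the difference. The 30 genes were taken from those that passed in every leave-one-out fit and whose genotypes do not overlap. Red marks are Fz4-/- and blue marks wild type, with a symbol for each replicate number.

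Genes were then read by function, on 59 lists that name 1323 genes, of which 1231 were measured and 330 passed. Each list stands beside 7.21% higher and 7.73% lower over all genes, and the members were not tested as sets. The lists were chosen with earlier results of these data known, and listed genes passed more often than all genes (14.9%). A share above 14.9% is thus not by itself particular to a list. Different probe sets of a gene can read different ends or forms of its transcript. Of 194 genes named here that passed the test, 103 have a further probe set, and in 40 at least 1 of these did not pass, while 0 passed in the opposite direction. A further set lay on the other side of 0 for Arhgef17, Cdt1, Fbln1, Igfbp7, Incenp, Rpgrip1, Rxra and Vcan. The rest of the 40 were Abcb1b, Acta2, Ang, Calcrl, Cenpe, Cp, Epas1, Fbln2, Foxf2, Foxl2, Id2, Itga4, Jam3, Kif23, Lrp1, Lrp6, Ltbp3, Mylk, Nfkbia, Pdgfra, Plk2, Prrx1, Ptgfr, S100a10, Selp, Slc6a6, Stox2, Tgm2, Thbs2, Tpm2, Wnt9a and Zyx.

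**Figure D3:**
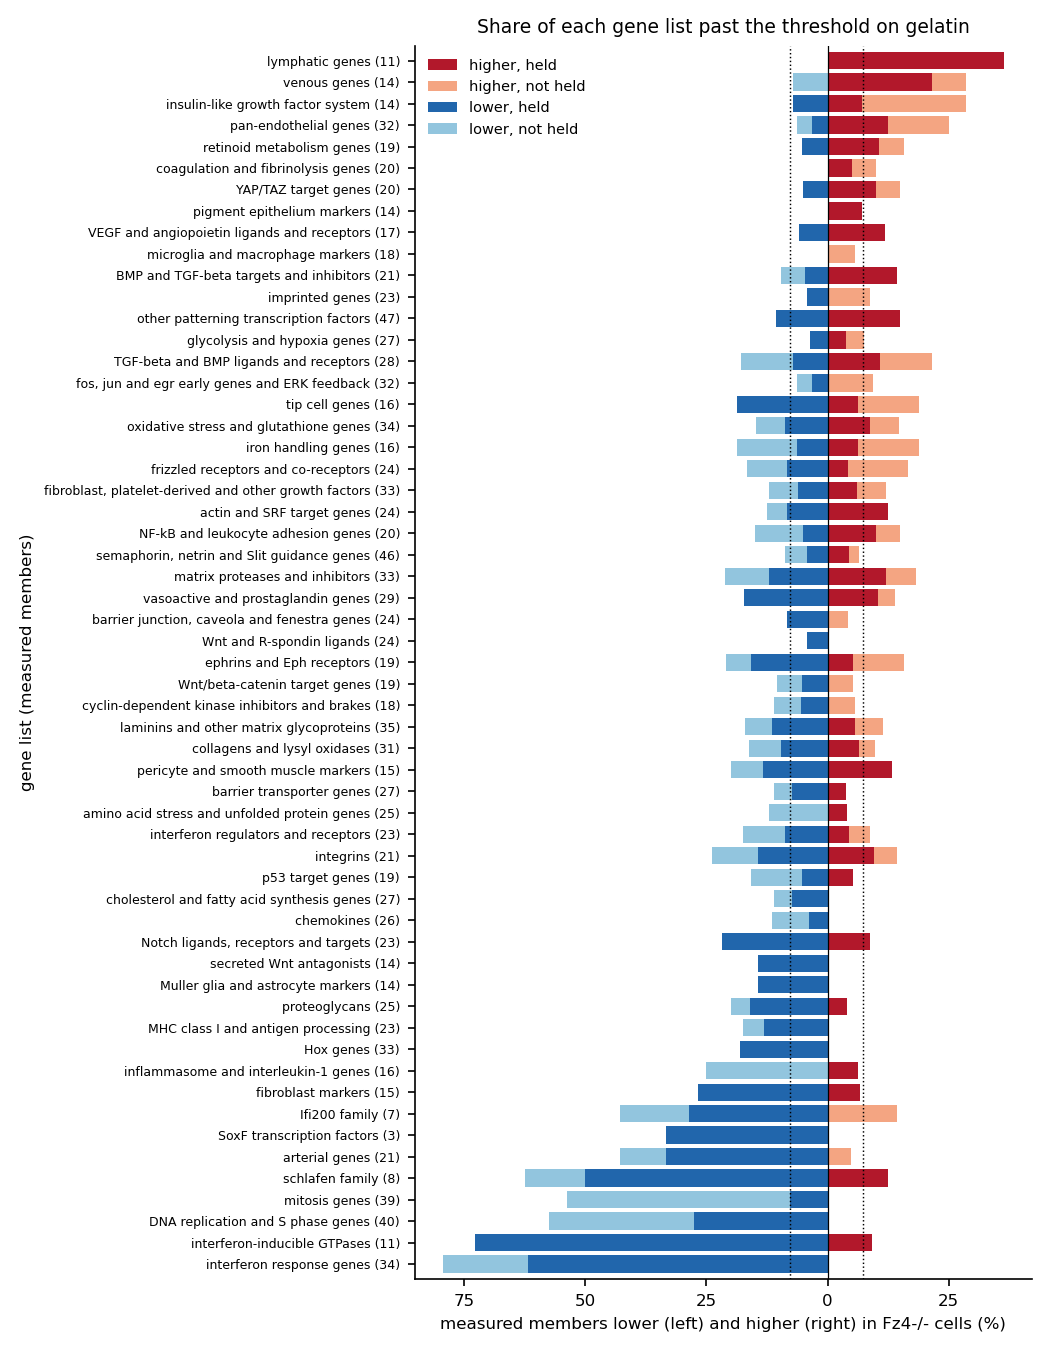
Share of the measured members (number in brackets) of each gene list with at least 1 called gene that was lower (bars to the left) or higher (bars to the right) in Fz4-/- cells, in percent. Dark bars are genes that passed in every leave-one-out fit, pale bars the other calls, and dotted lines the share over all genes; interferon, replication, mitosis and Schlafen genes reach furthest to the left.

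Of the ligands of the pathway, 24 Wnt and R-spondin genes including Ndp, only Wnt9a passed, and it fell by 1.24 ± 0.13. Among 24 frizzled receptors and co-receptors, 4 rose, of which 1 held, and 4 fell, of which Fzd4 and 1 other held. Lrp5, the Norrin co-receptor, read 7.08, 7.47 and 7.52 in Fz4-/- and 6.15, 6.58 and 6.34 in wild type and rose by 1.00 ± 0.17 (adjusted p = 0.00218). Reck, a membrane protein of Wnt7 reception, read 6.43, 6.48 and 6.49 in Fz4-/- and 7.19, 7.26 and 7.13 in wild type and fell by 0.73 ± 0.11. In both the genotypes did not overlap. Tspan12, the tetraspanin of the Norrin receptor, read 5.84, 5.57 and 5.63 in Fz4-/- and 4.99, 5.09 and 4.64 in wild type and rose by 0.78 ± 0.20, but the call was lost without Fz4-/- gelatin replicate 1, Fz4-/- gelatin replicate 3 or wild type gelatin replicate 3 (adjusted p = 0.0526 to 0.0942). Lrp6 likewise rose by 0.62 ± 0.16, and lost the call without Fz4-/- gelatin replicate 1, Fz4-/- gelatin replicate 3, wild type gelatin replicate 2 or wild type gelatin replicate 3 (adjusted p = 0.0543 to 0.107). Adgra2, which with Reck receives Wnt7 signals in brain endothelium, read 10.31, 9.90 and 9.97 in Fz4-/- and 10.23, 9.98 and 9.97 in wild type and did not pass (-0.00 ± 0.12).

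Wnt antagonists passed in 14.3% of cases and targets of beta-catenin in 15.8%, beside 14.9% of all genes. Of 14 antagonists 2 fell, and both held. Frzb, which binds Wnt ligands, read 7.03, 6.66 and 6.56 in Fz4-/- and 9.79, 8.97 and 8.93 in wild type and fell by 2.48 ± 0.23, and Dkk2, a ligand of Lrp5 and Lrp6, fell by 1.43 ± 0.14. Of 19 target genes 1 rose and 2 fell, and only the fall of Ccn4, a matricellular protein, held. Ccn4 read 6.12, 5.93 and 6.11 in Fz4-/- and 8.59, 8.64 and 8.69 in wild type and differed by -2.59 ± 0.25. The feedback gene Axin2 read 4.55, 4.53 and 4.56 in Fz4-/- and 4.80, 4.78 and 4.64 in wild type, a difference of -0.19 ± 0.12 (adjusted p = 0.348), with no overlap between genotypes but no call. Lef1, a DNA-binding partner of beta-catenin, differed by -0.04 ± 0.09 and the feedback inhibitor Nkd1 by -0.04 ± 0.13, neither past the threshold.

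Transcription factors of position differed sharply in few members. Of 33 measured Hox genes, which mark position along the body axis, 6 fell and 0 rose, with 6 lower and 0 higher also at an unadjusted p below 0.05 in limma. All 6 held. Beside Hoxd8, Hoxd9 read 5.02, 5.19 and 5.10 in Fz4-/- and 8.86, 8.37 and 8.38 in wild type and fell by 3.43 ± 0.19. Hoxb4 fell by 1.11 ± 0.16, Hoxd1 fell by 0.98 ± 0.22, Hoxd10 fell by 0.80 ± 0.14 and Hoxd3 fell by 0.70 ± 0.12. Of these 6 genes 5 belong to the HoxD cluster on chromosome 2. There the called genes form an unbroken run of 8 measured neighbours, from Hoxd10 to the mitochondrial gene Mtx2 (-0.40 ± 0.09), all lower, the longest such run in the comparison. Of 3 measured SoxF factors, which act together in vessel growth, Sox17 fell and Sox7 did not pass (0.55 ± 0.29, adjusted p = 0.259, or 0.00892 with replicate number as a block and 0.00127 without replicate 1 of every group).

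Among 47 other patterning factors, 7 rose and 5 fell, and all 12 held. Osr1, an odd-skipped factor of mesoderm, read 6.36, 6.25 and 6.15 in Fz4-/- and 9.10, 9.60 and 9.54 in wild type and fell by 3.16 ± 0.13. Twist1, a factor of mesenchyme, read 3.73, 4.85 and 4.44 in Fz4-/- and 7.08, 7.61 and 7.68 in wild type and fell by 3.11 ± 0.29. Tbx1 fell by 2.86 ± 0.27, Prrx1 fell by 1.81 ± 0.22 and Gata3 fell by 1.31 ± 0.14. Rises were seen in forkhead genes. Foxf2, a factor of pericytes and brain endothelium, read 5.76, 6.03 and 6.05 in Fz4-/- and 3.86, 3.91 and 3.86 in wild type and rose by 2.07 ± 0.14, while a further probe set gave 0.06. Foxc2, a factor of lymphatic valves, read 5.71, 5.96 and 5.91 in Fz4-/- and 4.13, 3.89 and 4.16 in wild type and rose by 1.80 ± 0.11, while Foxl2 rose by 2.00 ± 0.24 and Foxc1 by 0.56 ± 0.12. Meox1 rose by 3.10 ± 0.40, with 2.45 without Fz4-/- gelatin replicate 1 and 3.43 without Fz4-/- gelatin replicate 3, and Irx3 by 1.75 ± 0.28.

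Genes of arterial identity were lower in part and some of venous and lymphatic identity higher. Of 21 arterial genes 9 fell, of which 7 held, and 1 rose. Unc5b, a netrin receptor, read 7.49, 7.46 and 7.31 in Fz4-/- and 8.97, 9.08 and 9.22 in wild type and fell by 1.67 ± 0.20. Dll4, the arterial Notch ligand, read 6.03, 5.61 and 6.00 in Fz4-/- and 7.84, 7.27 and 7.48 in wild type and fell by 1.65 ± 0.25. Nrp1, the co-receptor of VEGF and semaphorins, read 7.02, 6.86 and 6.77 in Fz4-/- and 8.55, 8.34 and 8.03 in wild type and fell by 1.43 ± 0.21. In all 3 every wild type array was above every Fz4-/- array. Epas1, the hypoxia factor HIF-2 alpha, fell by 0.81 ± 0.12, Hey2 fell by 0.78 ± 0.13 and Jag2 fell by 0.68 ± 0.09. The list median was -0.575. Without replicate 1 of every group 15 arterial genes fell.

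Of 14 venous genes 4 rose, of which 3 held, and 1 fell. The other 9 did not pass, and the list median was 0.160. Beside Bst1 these were Selp, the adhesion molecule P-selectin, at 7.41, 7.33 and 7.55 in Fz4-/- and 3.88, 4.34 and 4.18 in wild type, and Nrp2, the co-receptor of VEGF-C, at 10.92, 11.04 and 11.05 in Fz4-/- and 8.03, 8.93 and 8.92 in wild type. They rose by 3.30 ± 0.15 and 2.38 ± 0.26, and a further Selp probe set gave 0.79, not past the threshold. Of 11 lymphatic genes 4 rose, all held, and 0 fell (1 lower at an unadjusted p below 0.05 in limma). Lyve1, a hyaluronan receptor, read 11.96, 12.47 and 12.50 in Fz4-/- and 8.79, 10.47 and 10.16 in wild type and rose by 2.50 ± 0.44. The others were Nrp2, which both lists hold, Foxc2, and Thy1, which the fibroblast list holds too. The remaining 7 lymphatic genes did not pass, and the list median was 0.213. The lymphatic master regulator Prox1 read 3.47 to 3.86 over the 6 arrays and did not pass (-0.30 ± 0.14).

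Pan-endothelial genes passed in 31.25% of cases, beside 14.9% of all genes and 330 of 1231 measured genes over all lists. Of 32, 8 rose and 2 fell, with 4 and 1 held. Robo4, a guidance receptor that stabilizes vessels, rose by 0.71 ± 0.14, the angiopoietin receptor Tek by 0.67 ± 0.12, the sialomucin Emcn by 0.64 ± 0.12 and the TGF-beta co-receptor Eng by 0.46 ± 0.09. Nos3, the endothelial nitric oxide synthase, fell by 0.46 ± 0.10. Kdr was at 0.32 ± 0.16, Tie1 at 0.09 ± 0.13 and the transcription factor Ets1 at 0.08 ± 0.11, none past the threshold. Of 17 VEGF and angiopoietin ligands and receptors, Tek, Nrp1 and Nrp2 were the 3 that passed.

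Notch genes fell and rose. Of 23, 5 fell and 2 rose, and all 7 held. The ligands Dll4 and Jag2 and the target Hey2 fell, as above, with the receptor Notch3 (-1.54 ± 0.19) and the glycosyltransferase Mfng (-0.89 ± 0.16). Rbpj, the DNA-binding partner of all Notch receptors, read 10.85, 10.74 and 10.78 in Fz4-/- and 10.06, 9.61 and 9.52 in wild type and rose by 1.06 ± 0.17, and Lfng, another glycosyltransferase, rose by 0.99 ± 0.23. Among ephrins and their receptors, 4 of 19 fell, among them Epha4 (-2.64 ± 0.25) and Efna1 (-0.72 ± 0.13), and 3 rose, of which Epha2 (0.53 ± 0.09) held. Of 16 tip cell genes, 3 fell and 3 rose. Igfbp3, a binding protein of insulin-like growth factors, read 5.64, 5.18 and 4.80 in Fz4-/- and 8.33, 8.19 and 8.24 in wild type and fell by 3.05 ± 0.22, and Ramp3, a subunit of adrenomedullin receptors, rose by 1.58 ± 0.29.

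Junction and caveola genes of the barrier passed in 12.5% of cases and its transporters in 14.8%, beside 14.9% of all genes. Of the 24 genes on the junction and caveola list, 2 fell and 1 rose. Lama4, a laminin chain and not itself a junction gene, read 8.08, 6.96 and 7.10 in Fz4-/- and 10.38, 9.57 and 9.62 in wild type. It fell by 2.48 ± 0.34, and the junction protein Jam3 fell by 0.99 ± 0.11. The tight junction protein Cldn5 read 10.02, 8.46 and 8.45 in Fz4-/- and 10.45, 9.50 and 9.50 in wild type and did not pass (-0.84 ± 0.53, adjusted p = 0.359, or 0.000837 with replicate number as a block and 0.000329 without replicate 1 of every group), and neither did the caveola gene Cavin1 (0.21 ± 0.21). Of 27 transporters 3 fell and 1 rose. Lrp1, an endocytic receptor, fell by 1.63 ± 0.28, the drug pump Abcb1b fell by 0.67 ± 0.14, and Slc6a6, the taurine transporter, read 11.29, 11.27 and 11.32 in Fz4-/- and 10.22, 10.16 and 10.27 in wild type and rose by 1.08 ± 0.10 (0.24 and 0.54 in further probe sets, not past the threshold). The glucose transporter Slc2a1 read 9.73, 10.70 and 10.76 in Fz4-/- and 10.10, 10.69 and 10.39 in wild type, with a difference of 0.01 ± 0.31.

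Most genes of the interferon response were lower in Fz4-/- cells. Of 34 measured, 27 fell and 0 rose (30 lower and 0 higher at an unadjusted p below 0.05 in limma), 21 held, and the median was -2.44 against -0.004 over all genes. The mean level of the list was 7.20, 7.98 and 7.99 in Fz4-/- and 8.97, 10.22 and 10.25 in wild type, so replicate 1 was lowest in both genotypes and the groups did not overlap. With 1 array left out 21 to 29 fell, and with replicate 1 of every group left out 31 fell and 1 rose. With replicates 2 and 3 averaged into 1 sample 6 fell.

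Ifit1, which binds viral RNA, read 7.04, 8.57 and 8.53 in Fz4-/- and 10.27, 11.48 and 11.57 in wild type and fell by 3.06 ± 0.50 (adjusted p = 0.00177). Usp18, which restrains the interferon receptor, read 8.30, 9.63 and 9.63 in Fz4-/- and 11.25, 12.08 and 12.19 in wild type and fell by 2.65 ± 0.42. Oasl1, of the oligoadenylate synthetase family, read 7.51, 7.52 and 7.45 in Fz4-/- and 9.61, 11.13 and 11.20 in wild type and fell by 3.16 ± 0.44. Each Fz4-/- array lay below each wild type array in these 3 genes. The helicase Ddx60 fell by 3.31 ± 0.47, the ligase Herc6 fell by 2.86 ± 0.42, the RNA sensor Dhx58 fell by 2.87 ± 0.46, the nucleotide kinase Cmpk2 fell by 2.78 ± 0.46, the RNA sensor Ifih1 fell by 2.06 ± 0.35, and Eif2ak2, the kinase PKR, fell by 1.13 ± 0.08. On chromosome 19, 5 adjacent genes from Ifit2 to Ifit1 were all lower, and these paralogs may share probe signal.

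Interferon-inducible GTPases, which attack vacuoles of intracellular pathogens, were lower with 1 exception. Of 11 measured, 8 fell and 1 rose, and all 9 held. Gbp3 read 8.50, 9.74 and 9.82 in Fz4-/- and 11.71, 12.07 and 11.65 in wild type and fell by 2.46 ± 0.34. Iigp1 read 8.39, 8.94 and 8.87 in Fz4-/- and 10.45, 11.27 and 11.34 in wild type and fell by 2.29 ± 0.28. Igtp fell by 2.04 ± 0.19, Gbp2 fell by 1.96 ± 0.40 and Irgm2 fell by 1.91 ± 0.17. Against them Gbp2b read 7.40, 7.90 and 7.90 in Fz4-/- and 3.80, 4.98 and 5.25 in wild type and rose by 3.06 ± 0.41. Guanylate-binding proteins are close relatives, and how far the probes of one read another was not tested.

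The interferon-stimulated response element, GAAANNGAAA, was looked for on both strands of the 250 bases before the start of each gene, in RefSeq sequence on GRCm38.p6. Of 14452 measured genes with such a sequence 453 held it (3.13%). Of genes that held it 12.8% fell and 5.52% rose, against 7.34% and 7.28% of those that did not. The 453 include the list members counted below. A larger share of falls was not particular to this element. Of 224 genes with the E2F site TTTCCCGC 13.8% fell and 6.70% rose, against 7.41% and 7.23% of those without. Of 112 genes with its second form, TTTGGCGC, 11.6% fell and 5.36% rose, against 7.48% and 7.24%. It was present in 9 of 24 interferon response genes, of which 7 fell, and of the 15 without it 12 fell. It was present in 7 of 8 GTPase genes, of which 6 fell and 1 rose, and the 1 without it fell. A match is a run of letters, not a measured binding site. The windows below are shown because 3 of these genes fell and the last, Gbp2b, rose with the same element. The windows are chr19:34640639-34640888 (plus strand) for Ifit1, chr5:92348890-92349139 (minus strand) for Cxcl10, chr3:142559794-142560043 (plus strand) for Gbp3 and chr3:142594597-142594846 (plus strand) for Gbp2b. Capitals mark the element, written TTTCNNTTTC where it lies on the other strand.
Ifit1: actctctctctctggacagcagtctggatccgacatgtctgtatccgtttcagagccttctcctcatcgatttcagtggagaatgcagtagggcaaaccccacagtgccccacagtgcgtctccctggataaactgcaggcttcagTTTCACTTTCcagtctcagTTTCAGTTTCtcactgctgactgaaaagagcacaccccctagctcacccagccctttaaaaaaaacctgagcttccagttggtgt
Cxcl10: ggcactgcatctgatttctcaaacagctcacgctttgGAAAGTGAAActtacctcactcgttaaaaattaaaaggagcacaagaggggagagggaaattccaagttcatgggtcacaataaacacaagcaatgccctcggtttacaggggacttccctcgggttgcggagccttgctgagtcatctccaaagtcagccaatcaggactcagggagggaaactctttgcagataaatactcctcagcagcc
Gbp3: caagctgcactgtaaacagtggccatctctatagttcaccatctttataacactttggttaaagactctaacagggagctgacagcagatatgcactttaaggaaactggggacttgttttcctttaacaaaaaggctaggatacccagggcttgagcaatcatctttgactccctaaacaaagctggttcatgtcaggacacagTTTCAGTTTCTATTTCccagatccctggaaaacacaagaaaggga
Gbp2b: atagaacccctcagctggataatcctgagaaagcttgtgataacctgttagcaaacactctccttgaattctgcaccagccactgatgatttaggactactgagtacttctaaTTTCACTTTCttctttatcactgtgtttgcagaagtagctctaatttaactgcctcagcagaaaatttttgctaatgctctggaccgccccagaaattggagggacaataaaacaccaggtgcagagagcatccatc
Ifit1 held 2 elements between 104 and 76 bases before the start, and Gbp3 2 overlapping ones between 45 and 30 bases. Cxcl10 held 1 at 213 to 204 bases and Gbp2b 1 at 137 to 128 bases.

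Other branches of immune defence differed gene by gene. Of 23 interferon regulators and receptors, 4 fell and 2 rose, and the RNA receptor Tlr3 (-2.00 ± 0.24), the transcription factor Irf9 (-1.29 ± 0.27) and the receptor kinase Jak2 (0.59 ± 0.08) held. The kinase Tyk2 (0.08 ± 0.08), the receptor chain Ifnar2 (-0.02 ± 0.19) and Stat3 (0.04 ± 0.12) did not pass. In the Ifi200 family of 7, 3 fell and 1 rose, with the falls of Ifi202b and Ifi204 (-1.54 ± 0.35) held. In the Schlafen family of 8, 5 fell and 1 rose, in opposite directions within 1 gene cluster. Slfn3 fell by 2.13 ± 0.25, Slfn9 fell by 1.37 ± 0.19, Slfn10-ps fell by 1.11 ± 0.16 and Slfn8 fell by 0.78 ± 0.13, while Slfn4 rose.

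Of 16 inflammasome and interleukin-1 genes, 4 fell, none of which held, and 1 rose, which was Casp1. Of 23 class I and antigen processing genes, 4 fell and 0 rose (9 lower and 1 higher at an unadjusted p below 0.05 in limma). The immunoproteasome subunit Psmb10 fell by 1.58 ± 0.35 and the class I activator Nlrc5 fell by 1.26 ± 0.18. The heavy chain H2-K1, whose gene lends the T antigen its promoter, read 13.00, 13.48 and 13.50 in Fz4-/- and 13.12, 13.54 and 13.52 in wild type, a difference of -0.07 ± 0.18. The light chain B2m was at -0.08 ± 0.07. Of 26 chemokines 3 fell, of which Cxcl10 held, and 0 rose (10 lower and 0 higher at an unadjusted p below 0.05). Ccl2, a monocyte attractant, was at 0.15 ± 0.34 and did not pass. Of 20 NF-kB and leukocyte adhesion genes 3 rose, with Selp and Madcam1 (0.99 ± 0.12) held, and 3 fell, with the inhibitor Nfkbia (-0.52 ± 0.11) held. The Nfkbia set free of the suffix gave -0.36, not past the threshold. Its call was also lost when the probe set was chosen by the highest mean over the 6 gelatin arrays.

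Genes of DNA replication and mitosis were lower in Fz4-/- cells, by amounts that turned on replicate 1. All 40 measured replication genes and all 39 mitosis genes had a difference below 0, with medians of -0.88 and -1.47. Of the replication genes 23 fell and 0 rose (37 lower and 0 higher at an unadjusted p below 0.05 in limma), and 11 held. Of the mitosis genes 21 fell and 0 rose (38 lower and 0 higher unadjusted), and 3 held.

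The mean level of the replication genes was 8.08, 9.18 and 9.16 in Fz4-/- and 9.76, 9.83 and 9.80 in wild type. That of the mitosis genes was 6.78, 8.26 and 8.25 in Fz4-/- and 8.95, 9.15 and 9.13 in wild type. Fz4-/- replicate 1 lay far below its 2 fellows, yet each Fz4-/- array was below each wild type array on both lists. Without Fz4-/- gelatin replicate 1, 14 replication and 7 mitosis genes fell. Without wild type gelatin replicates 1, 2 or 3 the replication counts were 16, 12 and 11 and the mitosis counts 13, 4 and 3, and without Fz4-/- Matrigel replicate 1 the mitosis count was 35. Without replicate 1 of every group 38 of each list fell. With replicate number as a block the counts were 37 and 38, and with replicates 2 and 3 averaged limma called 0 of either list (31 and 32 lower unadjusted).

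Among the genes that held, Rrm2, a subunit of ribonucleotide reductase, read 8.92, 10.39 and 10.38 in Fz4-/- and 11.66, 11.73 and 11.62 in wild type and fell by 1.77 ± 0.41 (adjusted p = 0.0133). Gins2, of the replicative helicase, read 7.52, 8.50 and 8.43 in Fz4-/- and 9.57, 9.57 and 9.68 in wild type and fell by 1.45 ± 0.26. The licensing factor Cdt1 fell by 1.27 ± 0.30 and the helicase subunit Mcm5 fell by 1.24 ± 0.30. In mitosis the kinesin Kif23 read 7.59, 8.45 and 8.55 in Fz4-/- and 9.29, 9.32 and 9.39 in wild type and fell by 1.14 ± 0.21 (-0.39 in a further probe set, not past the threshold), with Cenpe at -1.56 ± 0.36 and Incenp, of the chromosomal passenger complex, at -1.07 ± 0.19. Among 18 inhibitors and brakes of the cell cycle 2 fell and 1 rose. Cdkn1c, the inhibitor p57, fell by 1.23 ± 0.22, whereas Cdkn1a, the inhibitor p21, was at -0.01 ± 0.11. Of 19 p53 target genes 3 fell, with Pmaip1 (Noxa) at -1.72 ± 0.17 held, and 1 rose, Plk2 (0.52 ± 0.11).

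**Figure D4:**
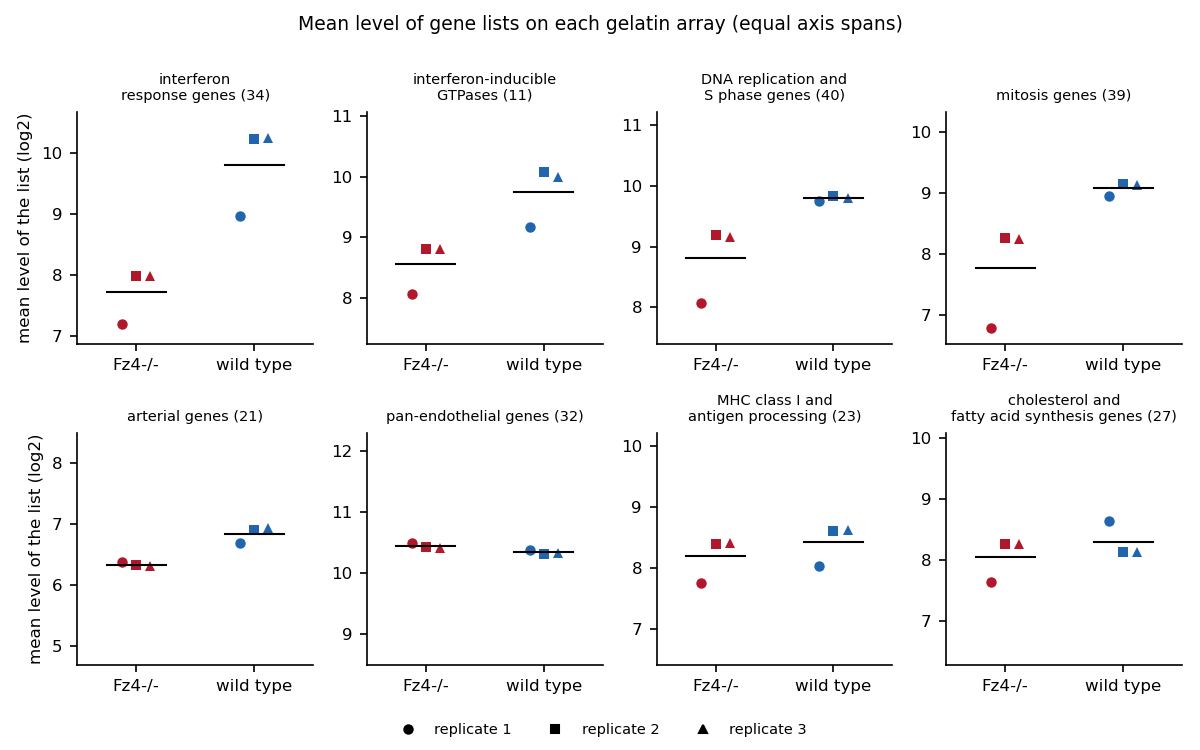
Mean log2 level of 8 gene lists on each gelatin array, with the number of measured genes in brackets, Fz4-/- in red, wild type in blue, a symbol for each replicate number and a line at the group mean. All panels span the same range. The interferon, GTPase, replication and mitosis lists do not overlap between genotypes, and neither do the arterial and pan-endothelial lists. The class I and cholesterol lists overlap. The pan-endothelial list lies at 10.45 in Fz4-/- and 10.35 in wild type.

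Growth factor genes changed in both directions. Of 28 TGF-beta and BMP ligands and receptors, 6 rose and 5 fell. That is 39.3%, beside 14.9% of all genes and 330 of 1231 measured genes over all lists. Bmp2 read 7.48, 6.98 and 7.01 in Fz4-/- and 9.83, 10.07 and 9.85 in wild type and fell by 2.76 ± 0.21, whereas Bmp4 read 13.15, 12.96 and 12.96 in Fz4-/- and 12.28, 11.94 and 12.02 in wild type and rose by 0.95 ± 0.15. The latency proteins also parted, with Ltbp2 at -2.43 ± 0.40 and Ltbp3 at 1.00 ± 0.10. Of 21 targets and inhibitors, 3 rose and 2 fell. Id2, a target of BMP signals that blocks bHLH factors, read 9.50, 9.79 and 9.61 in Fz4-/- and 7.50, 7.55 and 7.54 in wild type and rose by 2.11 ± 0.16 (1.03 in a further probe set, not past the threshold), but Id1 was at -0.33 ± 0.35 and Id3 at 0.11 ± 0.31, not past the threshold. Tgfbi rose by 2.26 ± 0.13 and the BMP-binding protein Bmper by 1.65 ± 0.15, and Fstl3 fell by 0.69 ± 0.13.

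Of 33 further growth factors and receptors, 4 rose and 4 fell. Fgf5 read 3.69, 3.46 and 3.92 in Fz4-/- and 6.90, 5.87 and 5.89 in wild type and fell by 2.53 ± 0.27, the receptor Pdgfra fell by 1.31 ± 0.26, and Ereg (0.90 ± 0.14) and Pdgfc (0.82 ± 0.13) rose. In the insulin-like growth factor system 4 of 14 rose and 1 fell, or 35.7%. The binding proteins Igfbp7 (1.60 ± 0.08) and Igfbp3 (-3.05 ± 0.22) held in opposite directions.

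Matrix genes rose and fell within each class. Of 31 collagens and lysyl oxidases, 5 fell and 3 rose. The main chains of the vessel basement membrane rose, Col4a1 at 13.13, 13.12 and 13.15 in Fz4-/- and 12.66, 12.64 and 12.62 in wild type by 0.49 ± 0.07 and Col4a2 by 0.77 ± 0.08. Col4a5, another basement membrane chain, fell by 1.38 ± 0.29, Col8a1 fell by 1.87 ± 0.25 and the crosslinking enzyme Loxl4 fell by 1.01 ± 0.17. Of 35 laminins and other glycoproteins, 6 fell and 4 rose. Fbln1 (-2.41 ± 0.30) and Fbln2 (-2.18 ± 0.21), fibulins of elastic fibres, fell with Lama4 and Sparcl1, but with only probe sets free of the cross-hybridization suffix Fbln1 was at 0.03 and Fbln2 at -0.10, neither past the threshold. Efemp1, a further fibulin, read 5.26, 6.24 and 6.28 in Fz4-/- and 3.30, 2.86 and 3.81 in wild type and rose by 2.60 ± 0.38, and Thbs2, an inhibitor of angiogenesis, rose by 1.55 ± 0.16.

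Among 25 proteoglycans and hyaluronan synthases, 5 fell and 1 rose. Has2, the main hyaluronan synthase, read 3.59, 3.54 and 4.24 in Fz4-/- and 6.91, 6.82 and 6.65 in wild type and fell by 3.00 ± 0.31. Vcan, which binds hyaluronan, fell by 1.57 ± 0.30, and the small proteoglycan Bgn read 11.74, 11.78 and 11.77 in Fz4-/- and 9.89, 10.15 and 10.23 in wild type and rose by 1.67 ± 0.10. Of 21 integrins 5 fell and 3 rose. Itga8 (-1.71 ± 0.33) and Itga1 (-1.03 ± 0.22) fell, and Itgb4, a laminin receptor subunit, at 9.32, 10.17 and 10.28 in Fz4-/- and 7.66, 8.33 and 8.40 in wild type, rose by 1.79 ± 0.27, as did Itga4 (1.61 ± 0.15). Of 33 proteases and inhibitors 7 fell and 6 rose. The collagen-cleaving cathepsin Ctsk read 4.07, 3.76 and 3.83 in Fz4-/- and 7.27, 7.33 and 7.10 in wild type and fell by 3.35 ± 0.15, with Mmp3 at -1.76 ± 0.19 and the inhibitor Timp1 at -1.12 ± 0.19. Beside Klk8, the serine protease Htra1 (2.19 ± 0.32) and Adam19 (1.41 ± 0.27) rose.

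Genes of vessel tone included ligands, enzymes and receptors that changed. Of 29 vasoactive and prostaglandin genes, 5 fell, all held, and 4 rose, of which 3 held. Ptgis, the prostacyclin synthase, fell by 2.60 ± 0.15. The prostaglandin receptors Ptger4 (-1.67 ± 0.30) and Ptgfr (-1.07 ± 0.20), the natriuretic peptide Nppb (-1.80 ± 0.19) and Nos3 fell. Calcrl, the adrenomedullin and CGRP receptor, read 8.94, 8.77 and 8.52 in Fz4-/- and 7.04, 7.34 and 7.07 in wild type and rose by 1.59 ± 0.17 (0.20 in a further probe set, not past the threshold), as did its partner Ramp3 and Npr3. Of 20 coagulation genes 2 rose, of which S100a10 (0.52 ± 0.08), a partner of annexin A2 in plasmin formation, held, and 0 fell (1 lower at an unadjusted p below 0.05 in limma).

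Cytoskeletal genes fell and rose, with 20% of YAP/TAZ targets and 25% of actin and SRF targets called, beside 14.9% of all genes. Of 20 YAP/TAZ targets, 1 fell, Ankrd1, and 3 rose, with Arhgef17 (2.10 ± 0.12) and Amotl2 (0.65 ± 0.11) held, while Ccn1 was at 0.06 ± 0.32 and Ccn2 at 0.37 ± 0.34, not past the threshold. Of 24 actin and SRF targets, 3 rose and 3 fell. Tagln (1.42 ± 0.09), Acta2, smooth muscle actin (1.28 ± 0.18), and the focal adhesion protein Zyx (0.74 ± 0.10) rose, and Fhl2 (-2.19 ± 0.12) and Tpm2, a tropomyosin (-2.03 ± 0.26), fell. With only probe sets free of the cross-hybridization suffix Acta2 was at 0.06 and Tpm2 at -0.13, and neither passed. Of 32 early genes and feedback genes of ERK signalling 3 rose and 2 fell, and Spry4 (-0.88 ± 0.16) held.

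Among the metabolic lists, those of glycolysis and of cholesterol each had 11.1% of their genes called, beside 14.9% of all genes. Of 27 glycolysis and hypoxia genes 2 rose and 1 fell, with Ndrg1 (1.24 ± 0.18) and Pfkfb4 (-0.53 ± 0.11) held. Of 27 cholesterol and fatty acid genes 3 fell and 0 rose (4 lower and 0 higher at an unadjusted p below 0.05 in limma). Scd1, a fatty acid desaturase, read 3.89, 4.75 and 4.66 in Fz4-/- and 7.09, 6.82 and 6.85 in wild type and fell by 2.49 ± 0.19. This list turned on replicate 1. Its mean level was 7.63, 8.26 and 8.26 in Fz4-/- and 8.64, 8.12 and 8.13 in wild type, the genotypes lay in opposite orders at replicate 1 and at replicates 2 and 3, and without replicate 1 of every group 12 genes rose and 3 fell.

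Of 34 oxidative stress and glutathione genes 5 rose and 5 fell. Glutathione transferases changed in both directions, with Gsta4 (2.26 ± 0.39) and Gstm4 (1.02 ± 0.21) higher and Gstm2 (-1.63 ± 0.33), Gstt1 (-0.86 ± 0.14) and Gstt2 (-0.75 ± 0.11) lower. Of 19 retinoid genes 3 rose and 1 fell. Tgm2, a transglutaminase induced by retinoic acid, read 11.65, 11.48 and 11.56 in Fz4-/- and 9.03, 9.72 and 9.63 in wild type and rose by 2.11 ± 0.17 (0.26 in a further probe set, not past the threshold), with the receptor Rxra at 0.99 ± 0.14 and the binding protein Crabp1 at -1.12 ± 0.13. Of 16 iron genes 3 rose and 3 fell, and the ferroxidases Cp (0.90 ± 0.11) and Heph (-1.33 ± 0.23) held in opposite directions. Of 25 stress and unfolded protein genes Trib3, a pseudokinase induced by amino acid shortage, rose by 1.60 ± 0.34, 3 fell and none of those held.

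Of the pericyte and of the fibroblast markers 33.3% passed, beside 14.9% of all genes. These shares were not particular to them: over all lists 330 of 1231 measured genes passed. The share was 31.25% of pan-endothelial genes, 38.1% of integrins and 39.4% of matrix proteases and inhibitors, but 0% of retinal neuron markers. Of 15 pericyte and smooth muscle markers 2 rose, Acta2 and Tagln, and 3 fell, with Notch3 and Mylk (-0.86 ± 0.12) held, and the list mean was 4.89 in Fz4-/- and 5.08 in wild type. Of 15 fibroblast markers Thy1 rose and Twist1, Fbln1, Prrx1 and Pdgfra fell, with list means of 4.37 and 4.66. Of 14 Muller glia and astrocyte markers Apoe, a lipid carrier, read 5.08, 5.58 and 5.24 in Fz4-/- and 6.96, 7.79 and 8.04 in wild type and fell by 2.29 ± 0.27, and Clu fell by 1.04 ± 0.17. Of 17 retinal neuron markers 0 passed (1 lower and 0 higher at an unadjusted p below 0.05 in limma). Of 18 microglia and macrophage markers 1 rose and did not hold, and of 14 pigment epithelium markers Best1 rose (0.91 ± 0.15). What part other cell types had in the differences was not tested.

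Genes were also read by chromosome, in RefSeq order. On chromosome 8 lower genes outnumbered higher ones along the whole chromosome. Of its 932 measured genes 170 fell and 25 rose, so 20.9% were called, against 12.6% to 17.1% on the other 19 chromosomes. Of the called genes 87.2% were lower, against 33.3% to 68.6% elsewhere and 51.7% over all genes. Of these 96 falls and 14 rises held. Genes of the lists above lie on chromosome 8 too, among them Tlr3, which fell, and Col4a1 and Col4a2, which rose. How much of the falls in the replication, mitosis, interferon and other lists came from genes of this chromosome was not tested. In 5 stretches of 186 or 187 genes from end to end, 30 to 44 fell and 3 to 7 rose in each.

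Among the 400 genes of chromosome 8 whose mean was above the 75th percentile of all probe sets (7.67), 81.5% had a difference below 0 and the median was -0.216. On other chromosomes the same median ran from -0.045 to 0.119. The shift was alike in every array. As deviations from the 6-array mean, the chromosome 8 medians were -0.109, -0.099 and -0.113 in Fz4-/- and 0.126, 0.101 and 0.121 in wild type. Without replicate 1 of every group 288 genes of chromosome 8 fell, and with replicates 2 and 3 averaged 36 fell. On Matrigel, in other arrays of the same cells, the median was -0.253 against -0.062 to 0.099 elsewhere.

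**Figure D5:**
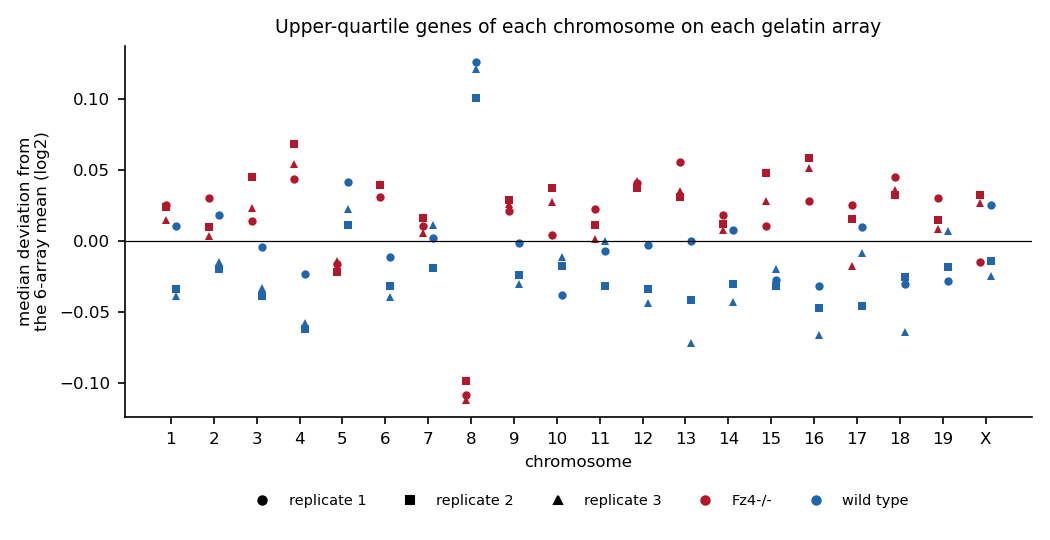
Median deviation of upper-quartile genes from their 6-array mean (log2, vertical axis), by chromosome and array, with Fz4-/- in red, wild type in blue and a symbol for each replicate number. On chromosome 8 the 3 Fz4-/- arrays lie at -0.113 to -0.099 and the 3 wild type arrays at 0.101 to 0.126, further apart than on any other chromosome shown.

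Around Fzd4 itself, on chromosome 7, 8 of the 40 nearest measured genes passed (20%), 5 higher and 3 lower, and 3 held (7.5%), against 14.9% and 8.06% over all genes. Ctsc, the lysosomal protease cathepsin C, read 3.66, 4.46 and 4.05 in Fz4-/- and 6.03, 7.11 and 6.90 in wild type and fell by 2.62 ± 0.31. Rab30, a Golgi GTPase, rose by 2.01 ± 0.42 and Nox4, an oxidase that makes hydrogen peroxide, by 0.66 ± 0.11. Elsewhere on the genome, runs of adjacent calls in 1 direction were short, with 1 of 8 genes, 1 of 5, 6 of 4 and 35 of 3. Besides the HoxD and Ifit runs, 4 Schlafen genes on chromosome 11 were lower together and 4 Lce1 genes of the epidermal complex on chromosome 3 were higher together.

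The same contrast on Matrigel, in 6 other arrays of these cells, called 2854 genes (15.7%). Of the 2719 genes called on gelatin 1974 were called in the same direction there, 72.6% of the gelatin calls and 69.2% of the Matrigel calls. Of the 1467 that held on gelatin it was 1306 (89.0%). Both contrasts share 1 estimate of the spread. The genotype difference itself differed between the media in 3 genes by limma's test (0.0165%). Kcnn4, a calcium-activated potassium channel, differed by 0.55 on gelatin and 2.05 on Matrigel, Gadd45a, a growth arrest gene, by -0.04 and -1.30, and Tbx18 by 4.01 and 2.83. For Gadd45a and Kcnn4 the test passed with each of 12 arrays left out in turn, and for Tbx18 only without Fz4-/- Matrigel replicate 1 or wild type gelatin replicate 3 (adjusted p = 0.0215 to 0.147 over the 12). On gelatin Kcnn4 rose (adjusted p = 0.00322) and Gadd45a did not pass (adjusted p = 0.841). For the other genes no difference between the media was shown, which does not show that they were alike.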

How the data were processed

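RNA of each sample was hybridised to 1 Affymetrix mouse array of 45101 probe sets. The deposited values are log2 intensities made by the authors with RMA, per the submitters' processing notes, and which arrays were normalized together is not given in the sources used here. RMA shrinks differences of dim probe sets, so folds of low genes may be understated. No control spots (64), probe sets with several symbols (932) or none (9160) entered the fits. The other 34945 name 18193 genes, each read by the probe set whose mean over the 24 arrays was highest, and 34741 matched RefSeq by gene ID. No values were scaled or filtered further.

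A mean per group was fitted with limma 3.58.1 (lmFit, eBayes; R 4.3.3; the data.table package, version 1.17.8) over 12 arrays, those on gelatin and on Matrigel, which leaves 8 residual degrees of freedom. The contrast was Fz4-/- minus wild type on gelatin, with Benjamini-Hochberg adjustment over all genes and a threshold of 0.05. An exact permutation test of 3 against 3 arrays cannot give a two-sided p below 0.1 and was not used. The script was tested on simulated data. Figures were drawn with matplotlib 3.10.9, and tables counted with pandas 2.3.3 and numpy 2.4.6 in Python 3.11.15.

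The groups share replicate numbers. Deviations from the group means of same-numbered Fz4-/- and wild type gelatin arrays correlated at 0.405, 0.268 and 0.243 over genes. These passed a minimum of 0.1, so the replicate number was a block in an alternative fit. The number set apart only replicate 1. Replicates 2 and 3 were not told apart by number, since differently numbered pairs of them correlated at 0.284 and 0.237, whereas replicate 1 against 2 or 3 gave -0.346 to -0.287. The labels do not say what a number stands for. Other alternatives changed the arrays in the fit, the normalization, the choice of probe set, a filter on low genes, the variance model and the threshold, and left out each array or replicate 1 of every group or averaged replicates 2 and 3.

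The text names Fzd4 and Ndp, the 15 genes with the largest rise and the 15 with the largest fall that held with no overlap, members of the gene lists (those that held first), called genes among the 40 nearest to Fzd4, and genes whose difference differed between media. The gene groups and lists were chosen with earlier results of these data known. Gene order came from a RefSeq table and promoters from RefSeq on GRCm38.p6.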

Additional observations from a re-analysis of the deposited data

Results flagged for a closer look

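The genotype difference differed between gelatin and Matrigel in 3 genes, tested in limma as a difference of differences. Gadd45a was 1.26 higher on gelatin than on Matrigel in this difference (adjusted p = 0.00702). It read 7.74, 7.61 and 7.61 in Fz4-/- and 7.61, 7.79 and 7.69 in wild type on gelatin, and 6.71, 6.67 and 6.90 in Fz4-/- and 7.99, 8.01 and 8.19 in wild type on Matrigel, so the genotypes overlapped on gelatin and not on Matrigel. Kcnn4 gave -1.50 (adjusted p = 0.00458). It read 6.49, 6.22 and 6.36 in Fz4-/- and 5.75, 5.81 and 5.86 in wild type on gelatin, and 7.55, 7.73 and 7.57 in Fz4-/- and 5.64, 5.39 and 5.66 in wild type on Matrigel, with Fz4-/- above wild type on both. Tbx18 gave 1.18 (adjusted p = 0.0359, and 0.0215 to 0.147 with 1 array left out), from 7.67, 7.74 and 7.71 in Fz4-/- and 3.65, 3.55 and 3.90 in wild type on gelatin and 6.46, 6.16 and 6.29 in Fz4-/- and 3.58, 3.44 and 3.41 in wild type on Matrigel.

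A further 3 genes, singled out after their values were seen, passed the test on both media in opposite directions. Albfm1 differed by -0.36 on gelatin and 0.30 on Matrigel (difference -0.65, adjusted p = 0.187). Fam122c differed by 0.35 and -0.27 (difference 0.62, adjusted p = 0.187). Metrnl, a secreted relative of meteorin, differed by -0.57 and 0.49 (difference -1.06, adjusted p = 0.191). For these 3 the test of the difference between the media itself missed the threshold, and none of them held on gelatin. Albfm1 lost its gelatin call without Fz4-/- or wild type gelatin replicate 2, Fam122c without wild type gelatin replicate 2, and Metrnl without replicate 2 or 3 of either genotype on gelatin.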

How the results depend on the processing

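The fall of Fzd4 passed the threshold under every alternative run, from -3.86 to -2.48. Of 2719 genes past the threshold, other settings gave 4138 with the replicate block, 4911 when replicate 1 of every group was left out, 667 when the average of replicates 2 and 3 was used, 723 with a 2-fold minimum and 1373 at an adjusted p below 0.01, and leaving out 1 array gave 1796 to 3094. Of 330 listed genes, 571 passed without replicate 1 of every group, 112 with the average, 193 with the 2-fold minimum and 187 at 0.01. The 27 lower interferon response genes became 6 and the 8 lower GTPases 5 with the average. The 23 lower replication genes became 37 with the replicate block, 38 with replicate 1 of every group left out, 0 with the average, 13 with the 2-fold minimum, 6 at 0.01 and 11 to 32 with 1 array left out. The 21 lower mitosis genes became 12 in the 6 gelatin arrays alone, 37 over all 24 arrays, 38 with the replicate block, 38 with replicate 1 of every group left out, 0 with the average, 2 at 0.01 and 3 to 35 with 1 array left out. The 170 lower genes of chromosome 8 became 288 without replicate 1 of every group, 36 with the average, 37 with the 2-fold minimum and 86 at 0.01. The 3 genes that differed between the media became 16 over all 24 arrays, 8 with the replicate block, 5 with the mean of all probe sets, 61 without replicate 1 of every group and 0 with the average (340 at an unadjusted p below 0.05 in limma), and 2 to 5 with 1 array left out. Averaging replicates leaves fewer samples and dropping replicate 1 removes the array farthest from its group, and for the other moves the cause was not tested. Fbln1 turned to 0.035 where probe sets with a cross-hybridization suffix were left out. Of 234 named genes, no other changed sign while past the threshold in the main fit or the alternative. Some that passed in neither did change sign, such as Adgra2 (-0.128 to 0.083) and Ccl2 (-0.154 to 0.427). The block changed the call of 4, Cd68, Cldn5, Dcn and Sox7, which then passed. Quantile normalization or centring of the arrays left all these counts within 1.5 times. Probe sets near the array floor bound what falls can be read, and 3 arrays per group limit the precision.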
